A study of Mus musculus with 8 samples.

Results

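The endogenous retrovirus repeats described here are the names of class LTR in a table of repeat expression that begin with IAP, RLTR, RMER, MMERVK, ETn or MMETn, ERVB, BGLII or MYSERV. The prefixes take in 306 of 1554 repeat names, of 683 in the LTR class. The names fall into 25 IAP, 186 RLTR, 54 RMER and 5 ETn names, with RLTRETN_Mm, the LTR of ETn, counted among the ETn names, and 36 names of the MMERVK, ERVB, BGLII and MYSERV series. Names ending in -int or _I are internal parts (45) and the others are long terminal repeats, LTRs (261). A further 4 RMER names belong to another class and were not used.

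RNA was sequenced from pooled mouse embryos collected at the 2-cell stage, in 4 pools of Dux knockouts (Dux KO) and 4 wild-type (WT) pools. Every pool was of the C57BL/6 background and held 12 to 18 embryos from timed matings. Dux encodes a homeobox transcription factor of the early embryo. No treatment is named for either group, and the labels name neither the knockout allele nor the parents' genotypes. Dux mRNA was not analysed here and gives no check of the genotypes. Pools of a genotype may or may not have had separate parents, and a p-value here sets a difference only against the spread from pool to pool. RNA of pools is compared throughout, and fewer embryos expressing a name cannot be told apart from less of its RNA per embryo.

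Endogenous retroviruses are remnants of germline retroviral infections. A complete copy has an internal region with retroviral genes between LTRs, which hold the promoter and the polyadenylation signal, and recombination between the LTRs leaves a solitary LTR behind. IAP (intracisternal A-particle) and ETn (early transposon) elements are mouse families that still transpose, while most RLTR and RMER names are older LTRs. Such elements are known to be silenced by KRAB zinc finger proteins, which bring TRIM28 and the histone methyltransferase SETDB1 to them, and by DNA methylation, and some are transcribed during genome activation. The deposited table gives the class but not the family, and the prefixes also take in names usually placed outside the ERVK family, such as RLTR4_Mm of murine leukaemia virus, RLTR6_Mm of VL30, RLTR1B and RMER15.

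Levels are FPM, fragments scaled for library size, and each value sums the fragments of every genomic copy of a name. Levels of different names depend on the number and length of their copies, so that only the pools are compared for each name. Reads recovered from the steps of the values amounted to 2239838 to 3008546 repeat reads per pool, of which 152793 to 237267 fell on these names. An amount of 3 reads was worth 0.981 to 1.28 FPM. All repeats together summed to between 1019090 and 1183116 FPM in the WT pools and between 834571 and 951000 FPM in the Dux KO pools, which shows that the values have no common total. Pools of a group differed from each other over these names by more than sampling noise, with a chi-square of 7.47 to 27.5 for each degree of freedom.

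The summed level of these repeats overlapped between the genotypes. It was 82320, 87902, 65255 and 70961 FPM in WT pools 1 to 4 and 66989, 70990, 70151 and 66934 FPM in Dux KO pools 1 to 4, means of 76610 ± 10343 (SD, n = 4) and 68766 ± 2112. WT pools 1 and 2 were above WT pools 3 and 4, and the Dux KO pools lay between the lowest WT pools and the highest. The sums of IAP, RLTR, RMER, ETn and the remaining names also overlapped between the genotypes. IAP names summed to 4114 ± 632 FPM in WT pools and 3491 ± 243 FPM in Dux KO pools, and ETn names to 1913 ± 174 and 1978 ± 154 FPM. RLTR names summed to 29225 ± 2739 and 26310 ± 194 FPM, RMER names to 30739 ± 4958 and 27304 ± 1563 FPM, and the remaining names to 10618 ± 1929 and 9684 ± 445 FPM. A few names carried much of the signal, with 5 names holding 23.4% and 50 names 66.4% of the summed FPM.

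**Figure D1:**
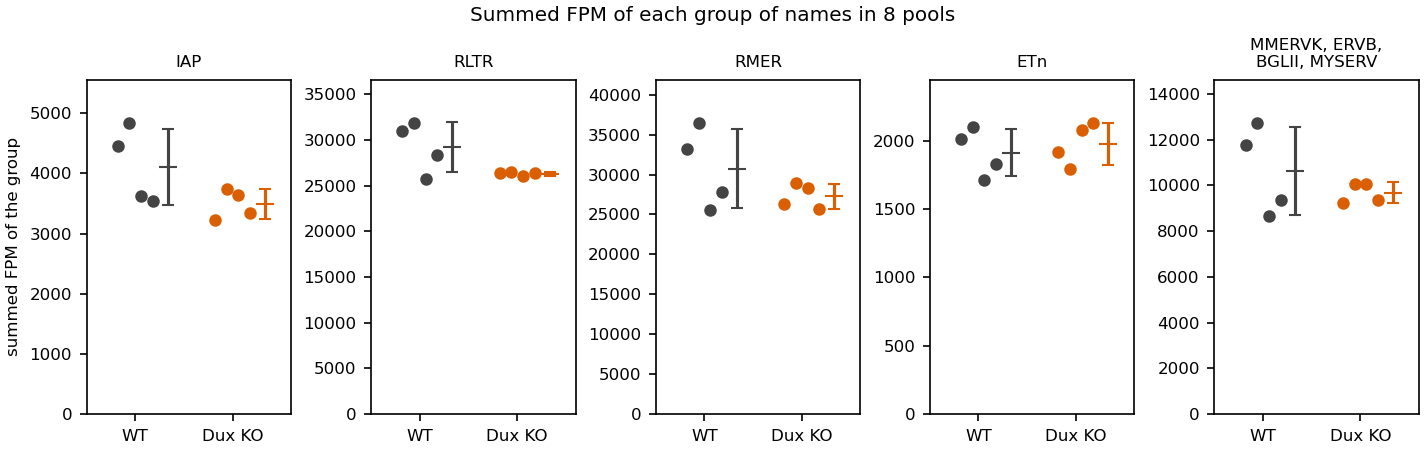
Summed FPM of each group of names (y axis from 0) in the 4 WT and 4 Dux KO pools, 1 point per pool in order of replicate number, with the mean and SD beside them. In all 5 panels the points of the genotypes overlap, and the WT points of RMER spread from 25501 to 36418 FPM.

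Among single names, losses in Dux KO were led by RLTR47, RLTR13A, RMER4B and RLTR19, and gains by RLTR1B-int. Of 306 names, 297 had a mean of at least 1 FPM and were tested with limma on log2(FPM + 1), where 12 were higher and 28 lower in Dux KO at a Benjamini-Hochberg adjusted p under 0.05, counted over all 1267 repeats tested. That is 13.5% of the tested names, and 12.2% of all repeats were called, 4.66% higher and 7.58% lower, so the share was near the background. The median log2 fold change was -0.049, against -0.024 over all repeats. The values of the genotypes did not overlap in 17 names that were higher and 36 that were lower, 17.8% of the tested names against 18.4% of all repeats (7.58% higher and 10.8% lower). The remaining 9 names were not tested, 6 of them listed at 0 in every pool (RLTR43A, RLTR43B and the LTR names RMER3D1 to RMER3D4). Of 257 names that did not pass, 220 had a 95% interval within 1 log2 unit of no change.

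These counts moved with single pools, the test and the scaling. The higher count fell to 3 without WT pool 4, and to 5, 3 and 5 without Dux KO pools 1, 2 and 3. The lower count became 16 and 17 without WT pools 1 and 2, and 13 and 17 without Dux KO pools 2 and 3. On the recovered reads, edgeR called 15 names higher and 34 lower, against 6.63% and 8.13% of all repeats, and DESeq2 called 24 and 44, against 9.79% and 10.7% (20.5% in either direction). The authors' deposited table has 15 higher, against 5.92% of all repeats, and 38 lower (15.9% of all repeats in either direction). Limma without its variance trend and robust moderation called 2 and 8. With each pool rescaled to the same total FPM over all repeats the median of all repeats moved from -0.024 to 0.27, and 71 names were higher and 11 lower. All 12 names called higher on the deposited scale stayed called, as did 11 of the 28 called lower, and the other 17 kept a negative fold change. The background on that scale was 24.6% higher and 2.92% lower. A direction close to 0 is therefore a statement about the deposited scale alone, and 5 names kept their call in all 20 alternatives run, namely RLTR47, RLTR13A, RMER4B, RLTR19 and RLTR1B-int.

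**Figure D2:**
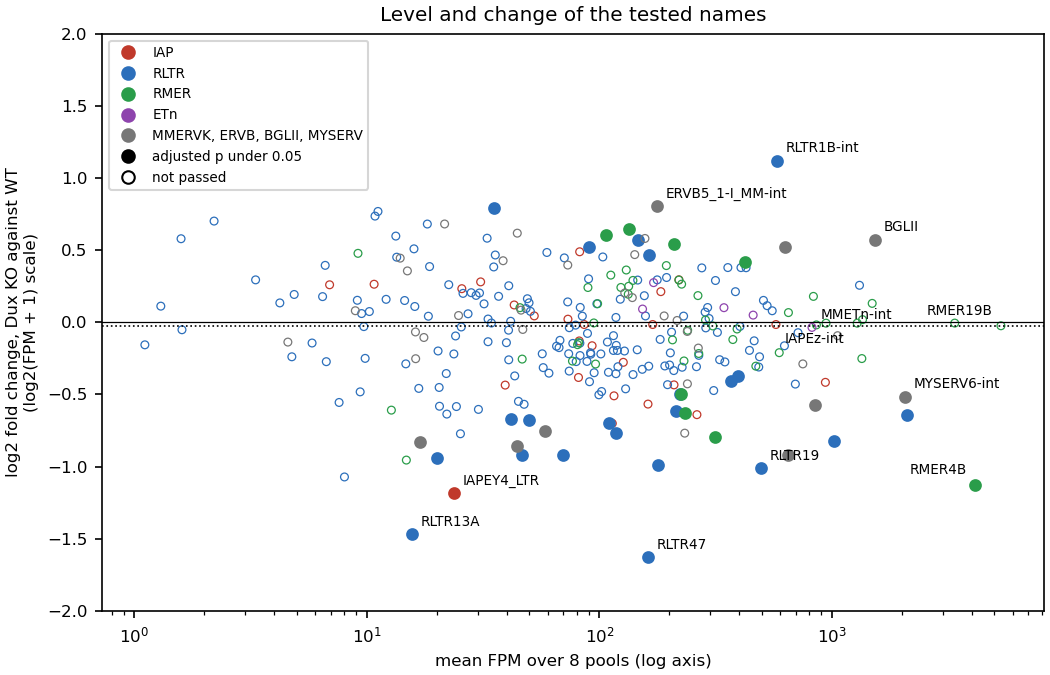
Mean FPM over 8 pools (x, log axis) against the log2 fold change of Dux KO over WT on the log2(FPM + 1) scale (y) for the 297 tested names, coloured by group. Filled points passed an adjusted p under 0.05, and the dotted line is the median of all repeats. RLTR47 is lowest at -1.63 and RLTR1B-int highest at 1.12, while most points lie near the lines.

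RLTR47, an LTR of moderate abundance, showed the largest fold change. It measured 258, 351, 156 and 218 FPM in WT pools 1 to 4 and 59.2, 75.5, 108 and 67.1 FPM in Dux KO pools 1 to 4. Every Dux KO pool was below every WT pool (log2 fold change -1.63, 95% interval -2.13 to -1.13, limma adjusted p = 0.00069). RMER4B, the LTR with the second highest mean level of all these names, measured 6016, 7139, 3941 and 5635 FPM in WT pools 1 to 4 and 2432, 2042, 3385 and 2507 FPM in Dux KO pools 1 to 4. Its highest Dux KO pool stayed under its lowest WT pool (log2 fold change -1.12, 95% interval -1.50 to -0.74, limma adjusted p = 0.0013). This name lost more FPM than any other called name, 5683 ± 1325 in WT pools and 2591 ± 567 FPM in Dux KO pools.

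RLTR19 measured 708, 772, 559 and 608 FPM in WT pools 1 to 4 and 306, 243, 436 and 347 FPM in Dux KO pools 1 to 4. The genotypes did not overlap (log2 fold change -1.01, 95% interval -1.37 to -0.65, limma adjusted p = 0.0017). Its relative RLTR19B also fell (log2 fold change -0.92, 95% interval -1.38 to -0.45, limma adjusted p = 0.016), from 92.6 ± 30.1 in WT pools to 47.1 ± 7.46 FPM in Dux KO pools. RLTR13A was scarce, with 25.1, 27.8, 17.5 and 22.7 FPM in WT pools 1 to 4 and 12.8, 6.54, 7.64 and 5.22 FPM in Dux KO pools 1 to 4. The Dux KO values correspond to few reads, and the groups were still apart (log2 fold change -1.47, 95% interval -2.07 to -0.87, limma adjusted p = 0.005). RLTR20A, also scarce, fell from 26.7 ± 2.97 in WT pools to 13.4 ± 1.88 FPM in Dux KO pools without overlap, with a limma log2 fold change of -0.94.

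The other large losses rested on fewer pools. RLTR50B measured 372, 315, 128 and 161 FPM in WT pools 1 to 4 and 102, 113, 105 and 127 FPM in Dux KO pools 1 to 4, so that its WT mean was set by pools 1 and 2 (log2 fold change -0.99, 95% interval -1.60 to -0.38, limma adjusted p = 0.039). The call of RLTR50B was lost with any 1 of WT pools 1 and 2 or Dux KO pools 1, 2, 3 and 4 left out (limma adjusted p = 0.0568 to 0.0841). RLTR41B was 62.4 ± 25.2 in WT pools and 30.6 ± 4.12 FPM in Dux KO pools, with values that overlapped (log2 fold change -0.92, 95% interval -1.47 to -0.37, limma adjusted p = 0.034). The call of RLTR41B was lost with any 1 of WT pools 1, 2 and 4 or Dux KO pools 1, 2 and 3 left out (limma adjusted p = 0.0552 to 0.0835). ERVB7_2B-LTR_MM measured 1006, 1190, 546 and 669 FPM in WT pools 1 to 4 and 383, 378, 555 and 423 FPM in Dux KO pools 1 to 4. Dux KO pool 3 reached the level of WT pool 3 (log2 fold change -0.92, 95% interval -1.37 to -0.46, limma adjusted p = 0.016). The call of ERVB7_2B-LTR_MM was lost without Dux KO pool 2 (limma adjusted p = 0.051).

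RLTR1B-int, an internal part, rose most. It measured 351, 416, 389 and 285 FPM in WT pools 1 to 4 and 766, 1123, 735 and 576 FPM in Dux KO pools 1 to 4. All Dux KO pools were above all WT pools, with Dux KO pool 2 the highest (log2 fold change 1.12, 95% interval 0.73 to 1.51, limma adjusted p = 0.0015). The LTR of the same series, RLTR1B, did not pass, at 281 ± 45.5 in WT pools and 302 ± 51.4 FPM in Dux KO pools (log2 fold change 0.10, 95% interval -0.21 to 0.42, limma adjusted p = 0.71). ERVB5_1-I_MM-int, another internal part, measured 131, 139.7, 149 and 94.6 FPM in WT pools 1 to 4 and 256, 257, 208 and 179 FPM in Dux KO pools 1 to 4. It too was apart between genotypes (log2 fold change 0.81, 95% interval 0.45 to 1.17, limma adjusted p = 0.009) and stayed called without each single pool. Its scarcer LTR, ERVB5_1-LTR_MM, with a mean of 21.6 FPM over all pools, had a similar log2 fold change of 0.68 and did not pass.

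BGLII, an LTR and among the 10 most abundant names, measured 1471, 1322, 1158 and 986 FPM in WT pools 1 to 4 and 1931, 2051, 1795 and 1535 FPM in Dux KO pools 1 to 4. The groups did not overlap (log2 fold change 0.57, 95% interval 0.28 to 0.87, limma adjusted p = 0.016). The call of BGLII was lost without WT pool 4 (limma adjusted p = 0.051) and Dux KO pool 2 (limma adjusted p = 0.055). Its relatives BGLII_Mur and BGLII_C, named after their values were seen, were called in the other direction, with log2 fold changes of -0.75 and -0.83. The call of BGLII_Mur was lost with any 1 of WT pools 1 and 2 or Dux KO pools 1, 3 and 4 left out (limma adjusted p = 0.0564 to 0.0868). The call of BGLII_C was lost with any 1 of WT pools 1 and 2 or Dux KO pools 2, 3 and 4 left out (limma adjusted p = 0.0782 to 0.127). The remaining names called higher were RLTR44-int, RMER17A-int, RMER17D2, RLTR12BD_Mm, RMER20A, RLTR13C2, MYSERV16_I-int, RLTR16 and RMER3D-int, with log2 fold changes of 0.42 to 0.79. Each of these 9 lost its call without Dux KO pool 2, and all but RLTR44-int also lost it without WT pool 4, with limma adjusted p-values up to 0.137.

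**Figure D3:**
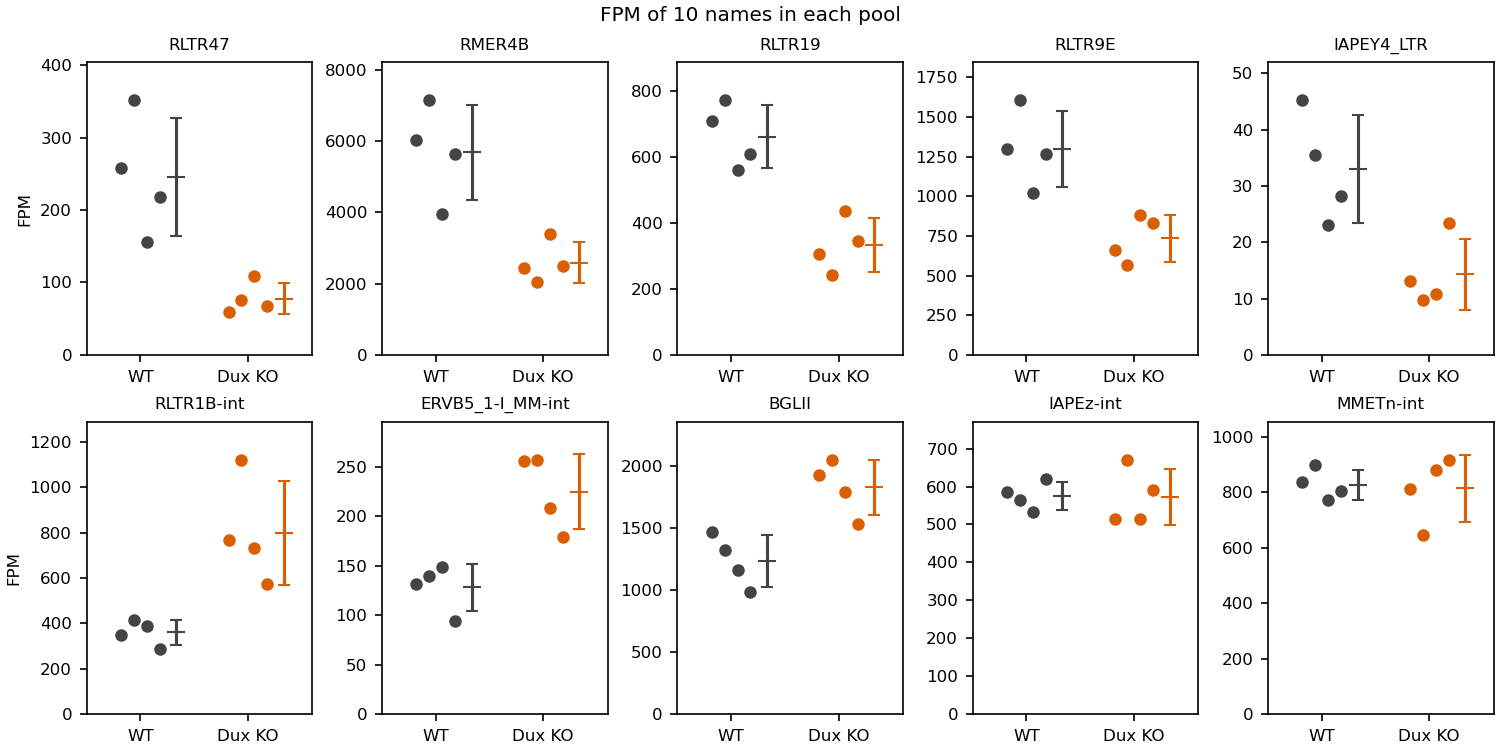
FPM (y axis from 0) of 10 names in each WT and Dux KO pool, with mean and SD, drawn to contrast names that fell (RLTR47, RMER4B, RLTR19, RLTR9E, IAPEY4_LTR), rose (RLTR1B-int, ERVB5_1-I_MM-int, BGLII) and did not pass (IAPEz-int, MMETn-int). In RLTR47, RMER4B, RLTR19 and RLTR9E all Dux KO points lie under the WT points, and in IAPEz-int and MMETn-int the points mix.

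Of 25 IAP names, 1 was called by limma, lower (4.0%, against 12.2% of all repeats), with a group median of -0.015. At an unadjusted limma p under 0.05, 7 were lower and 1 higher, beside 193 and 160 of all 1267 repeats tested. IAPEz-int, the internal part of the IAPEz family, measured 587, 564, 532 and 619.8 FPM in WT pools 1 to 4 and 514, 671, 513 and 591 FPM in Dux KO pools 1 to 4. The pools mixed completely (log2 fold change -0.015, 95% interval -0.27 to 0.24, limma adjusted p = 0.956), and the sign turned to a rise of 0.30 after rescaling to a common total. IAP1-MM_I-int, the most abundant IAP name, measured 983, 1144, 1171 and 967 FPM in WT pools 1 to 4 and 751, 934, 922 and 621 FPM in Dux KO pools 1 to 4. All Dux KO pools were under all WT pools, yet the name did not pass (log2 fold change -0.42, 95% interval -0.72 to -0.12, limma adjusted p = 0.068).

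The IAP name called was IAPEY4_LTR, at 45.2, 35.6, 23.1 and 28.1 FPM in WT pools 1 to 4 and 13.2, 9.81, 10.8 and 23.5 FPM in Dux KO pools 1 to 4. Dux KO pool 4 reached the WT range (log2 fold change -1.19, 95% interval -1.80 to -0.57, limma adjusted p = 0.017). The call of IAPEY4_LTR was lost without WT pool 1 (limma adjusted p = 0.051) and Dux KO pool 2 (limma adjusted p = 0.056). Its internal part IAPEY4_I-int was 142 ± 46.1 in WT pools and 85.2 ± 20.3 FPM in Dux KO pools and did not pass by limma (log2 fold change -0.70, 95% interval -1.18 to -0.22, limma adjusted p = 0.058). By edgeR on the recovered reads 5 of 25 IAP names were lower, IAPEY2_LTR, IAPLTR2a, IAPLTR2_Mm, IAPEY4_I-int and IAPEY4_LTR, against 8.13% of all repeats. The authors' deposited table calls these same 5, against 15.9% of all repeats in either direction. The share of IAP names called was therefore below that of all repeats by limma, and above it by edgeR and in the deposited table. IAPEY2_LTR, the most abundant IAP LTR, measured 395, 461, 216 and 233 FPM in WT pools 1 to 4 and 178, 214, 205 and 197 FPM in Dux KO pools 1 to 4, where WT pools 1 and 2 stood high and WT pools 3 and 4 lay close to the Dux KO pools. IAPLTR2a2_Mm was 197 ± 28.5 in WT pools and 242 ± 30.4 FPM in Dux KO pools and did not pass (log2 fold change 0.30, 95% interval -0.0063 to 0.60, limma adjusted p = 0.189), but it was called higher by DESeq2 (0.33, adjusted p = 0.047) and by limma after rescaling to a common total (0.60, adjusted p = 0.0035).

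None of the 5 ETn names was called by limma, none had an unadjusted p under 0.05, and neither edgeR, DESeq2 nor the deposited table called one. MMETn-int, an internal part and the most abundant, measured 836, 897, 770.5 and 805 FPM in WT pools 1 to 4 and 811, 645, 881 and 917 FPM in Dux KO pools 1 to 4. The highest and the lowest value were both Dux KO pools (log2 fold change -0.035, 95% interval -0.30 to 0.23, limma adjusted p = 0.898). RLTRETN_Mm, the LTR, was 451 ± 74.0 in WT pools and 466 ± 66.3 FPM in Dux KO pools (log2 fold change 0.05, 95% interval -0.26 to 0.36, limma adjusted p = 0.878), and ETnERV2-int was 329.7 ± 10.5 in WT pools and 356 ± 50.8 FPM in Dux KO pools (log2 fold change 0.10, 95% interval -0.16 to 0.37, limma adjusted p = 0.648). All 5 intervals lay within 1 log2 unit of no change. After rescaling to a common total, 4 of the 5 were called higher, on a scale where 24.6% of all repeats were called higher. The ETn median on that scale was 0.40, and that of all repeats 0.27. ETn names made up 0.168 to 0.188% of repeat FPM in WT pools against 0.201 to 0.255% in Dux KO pools, without overlap. The total repeat FPM under this share was lower in every Dux KO pool, while summed ETn FPM overlapped (1913 ± 174 in WT and 1978 ± 154 in Dux KO pools).

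Among 182 RLTR names tested, 5 were higher and 17 lower, 12.1% in all against 12.2% of all repeats, with a group median of -0.13. RLTR17B_Mm, the most abundant, measured 2668, 1848, 2600 and 3164 FPM in WT pools 1 to 4 and 2051, 1230, 1548 and 1754 FPM in Dux KO pools 1 to 4. Dux KO pool 1 was above WT pool 2, and the name passed (log2 fold change -0.64, 95% interval -1.01 to -0.27, limma adjusted p = 0.029). The call of RLTR17B_Mm was lost with any 1 of WT pools 1, 3 and 4 or Dux KO pools 2 and 3 left out (limma adjusted p = 0.0555 to 0.0881). RLTR14, next in abundance, was 1184 ± 235 in WT pools and 1443 ± 461 FPM in Dux KO pools and did not pass (log2 fold change 0.26, 95% interval -0.15 to 0.67, limma adjusted p = 0.424). RLTR45-int, the most abundant RLTR internal part, measured 596, 669, 757 and 1119 FPM in WT pools 1 to 4 and 482, 350.2, 638 and 955 FPM in Dux KO pools 1 to 4, and it varied within each genotype by more than the difference between them (log2 fold change -0.43, 95% interval -1.01 to 0.16, limma adjusted p = 0.339).

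Calls were also counted among names that share a stem, beside 4.66% of all repeats called higher and 7.58% lower. Of 13 RLTR9 names, a series known for enhancer activity in embryonic stem cells, 3 were lower and none higher, with fold changes from -0.82 to 0.60. RLTR9E, named after its values were seen, measured 1301, 1605, 1022 and 1264 FPM in WT pools 1 to 4 and 664, 565, 882 and 834 FPM in Dux KO pools 1 to 4. It was apart between genotypes (log2 fold change -0.82, 95% interval -1.17 to -0.48, limma adjusted p = 0.0063) and kept its call without each single pool. Of 23 RLTR13 names 1 was higher and 2 lower, and the range ran from -1.47 in RLTR13A to 0.68. The 10 RLTR10 and 7 RLTR30 names included none called, while 2 of 4 RLTR41 and 2 of 7 RLTR19 names were lower. RLTR41B, described above, and RLTR41C, named after its values were seen, were the RLTR41 names called. The call of RLTR41C was lost with any 1 of 6 pools left out (limma adjusted p = 0.0548 to 0.0878). Those of RLTR19 and RLTR19B were kept without each single pool. In some series all fold changes had a negative sign on the deposited scale, in 7 of 7 RLTR30 (median -0.21), 5 of 5 RLTR26 (-0.35, 1 called) and 4 of 4 RLTR6 names (-0.28, 1 called). After rescaling to a common total 4, 2 and 3 of these names turned positive.

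Of 50 RMER names tested 4 were higher and 4 lower, 16.0% against 12.2% of all repeats, with a median of -0.0054. RMER19B, the most abundant of all 306 names, measured 6028, 6698, 4307 and 4591 FPM in WT pools 1 to 4 and 4941, 6045, 5361 and 4668 FPM in Dux KO pools 1 to 4. The Dux KO pools fell inside the WT range (log2 fold change -0.024, 95% interval -0.33 to 0.28, limma adjusted p = 0.938). RMER15 was 3386 ± 422 in WT pools and 3358 ± 177 FPM in Dux KO pools (log2 fold change -0.0052, 95% interval -0.24 to 0.23, limma adjusted p = 0.976) and RMER16-int, the most abundant RMER internal part, 1287 ± 133 in WT pools and 1280 ± 111 FPM in Dux KO pools (log2 fold change -0.0057, 95% interval -0.25 to 0.24, limma adjusted p = 0.975). RMER19A, RMER19C and RMER6A did not pass either, at log2 fold changes of 0.13, 0.019 and -0.25. The signs of RMER19B, RMER15 and RMER16-int turned positive after rescaling to a common total. Of the names called, RMER4B stood at the abundant end, and RMER13A2 and RMER6BA, named after their values were seen, fell by 0.63 and 0.80 on the log2 scale and kept their calls without each single pool.

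Of 35 tested MMERVK, ERVB, BGLII and MYSERV names 3 were higher (8.57%) and 6 lower (17.1%), with a median of 0.013. That is 25.7%, against 12.2% of all repeats (4.66% higher and 7.58% lower). Only ERVB5_1-I_MM-int and MMERVK10D3_LTR kept their calls without each single pool. MYSERV6-int, the most abundant, measured 2556, 2882, 1949 and 2360 FPM in WT pools 1 to 4 and 1669, 1589, 1816 and 1688 FPM in Dux KO pools 1 to 4. Every Dux KO pool was below every WT pool (log2 fold change -0.51, 95% interval -0.78 to -0.25, limma adjusted p = 0.016). The call of MYSERV6-int was lost without Dux KO pool 2 (limma adjusted p = 0.051). MYSERV16_I-int, of the same series, was called in the other direction (log2 fold change 0.52, 95% interval 0.21 to 0.83, limma adjusted p = 0.033), from 519 ± 101 in WT pools to 741 ± 95.1 FPM in Dux KO pools, with values that overlapped. The call of MYSERV16_I-int was lost with any 1 of WT pools 3 and 4 or Dux KO pools 1, 2 and 3 left out (limma adjusted p = 0.0618 to 0.104). MMERVK10C-int did not pass, at 1095 ± 179.9 in WT pools and 1021 ± 103 FPM in Dux KO pools (log2 fold change -0.092, 95% interval -0.37 to 0.19, limma adjusted p = 0.708). All 5 MMERVK names had a negative fold change on the deposited scale, with MMERVK10C-int and MMERVK9C_I-int turning positive after rescaling to a common total, and 2 of them passed, MMERVK9E_I-int and MMERVK10D3_LTR, at -0.57 and -0.86. The call of MMERVK9E_I-int was lost with any 1 of WT pools 1 and 2 or Dux KO pools 1 and 2 left out (limma adjusted p = 0.0562 to 0.0653).

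Of 252 LTR names 6 were higher (2.38%) and 26 lower (10.3%), 12.7% in all, with a median of -0.074. Of 45 internal names 6 were higher (13.3%) and 2 lower (4.44%), 17.8% in all, with a median of 0.013. Over all repeats 12.2% were called, 4.66% higher and 7.58% lower. The 8 internal calls fell to 3 without Dux KO pool 1 and to 3 without Dux KO pool 2. Limma without its variance trend and robust moderation called 2 internal names. Outside these names the rest of the LTR class showed another pattern, with 20 higher and 19 lower of 230 LTR names and 3 higher and 14 lower of 87 internal names. The difference between LTRs and internal parts was not tested, since names of a series share reads and copies. The summed internal names held 21.2 to 23.0% of FPM in WT pools and, overlapping them, 22.3 to 23.4% in Dux KO pools.

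Within groups the internal share, which no scaling of a pool can change, differed more. Internal names held 10.9, 11.9, 13.1 and 12.8% of RLTR FPM in WT pools 1 to 4 and 13.7, 14.9, 14.4 and 14.3% in Dux KO pools 1 to 4, without overlap. In RMER they held 7.48 ± 0.597% (SD, n = 4) in WT and 9.01 ± 0.214% in Dux KO, also without overlap. In the MMERVK, ERVB, BGLII and MYSERV names the share was lower in Dux KO, 61.9 ± 2.04% against 67.8 ± 1.53%, without overlap. Without RLTR1B-int, without RMER4B and without BGLII, each chosen after seeing the data, the shares overlapped, at 11.1 and 11.6% in RLTR, 9.16 and 9.96% in RMER and 76.8 and 76.2% in the last group in WT and Dux KO. In RMER the difference without RMER4B was still 0.803 percentage points of 1.53, with a highest WT share of 9.84% and a lowest Dux KO share of 9.64%. IAP shares were 57.1 ± 4.14% and 58.3 ± 1.76%, and ETn shares 76.5 ± 2.13% and 76.5 ± 1.80%, both with overlap.

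**Figure D4:**
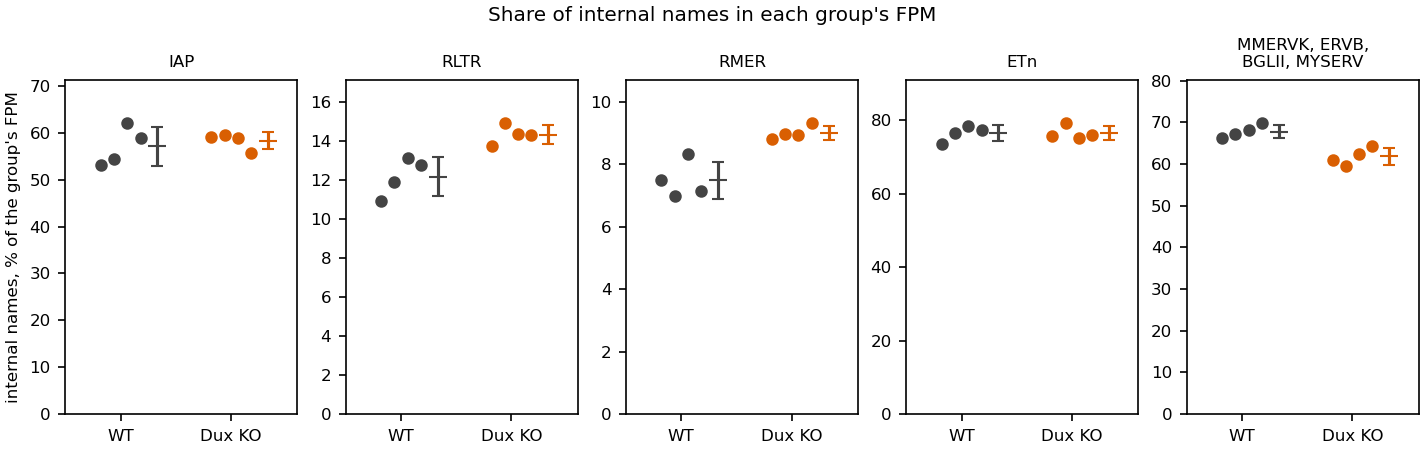
Internal names as a percentage of each group's summed FPM (y axis from 0) in every WT and Dux KO pool, with mean and SD. The genotypes are apart in RLTR and RMER (Dux KO higher) and in the last panel (Dux KO lower), and overlap in IAP and ETn.

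Internal names were set beside the LTR names of their own series in 73 pairs from 33 internal names, several LTRs sharing an internal part. Pairs followed the stem of the names, and the called LTR RMER6BA was left without a pair. Those of IAPEz-int, IAPEy-int, MMERVK10C-int, ETnERV-int, ETnERV2-int and MMETn-int were assigned by hand from general knowledge. The fold change of the internal name was above that of its LTR in 52 pairs, with a median difference of 0.23. Neither name was called in 59 pairs, only the LTR in 6, only the internal name in 8, 5 of them the pairs of RLTR44-int, and both in none. The 6 pairs with only the LTR called also repeat names, since IAPEY4_LTR and RLTR19-int each recur among them. In RLTR1B, described above, the internal fold change was 1.02 above that of the LTR, and in RLTR19 it was 0.85 above. The LTR RLTR19 fell, while RLTR19-int was 661 ± 60.1 in WT pools and 588 ± 12.3 FPM in Dux KO pools (log2 fold change -0.16, 95% interval -0.39 to 0.066, limma adjusted p = 0.356), with a sign that turned positive after rescaling to a common total. RMER17A-int rose from 104 ± 18.3 in WT pools to 164 ± 30.5 FPM in Dux KO pools (log2 fold change 0.65, 95% interval 0.27 to 1.02, limma adjusted p = 0.029), and its LTR RMER17A was 86.9 ± 28.2 in WT pools and 75.8 ± 4.40 FPM in Dux KO pools and did not pass (log2 fold change -0.14, 95% interval -0.57 to 0.29, limma adjusted p = 0.71). The call of RMER17A-int was lost with any 1 of WT pool 4 or Dux KO pools 1, 2 and 3 left out (limma adjusted p = 0.065 to 0.0835). In MMERVK10D3 both parts had similar fold changes, -0.86 for the LTR, which passed, and -0.77 for the internal part, which did not (limma adjusted p = 0.103).

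**Figure D5:**
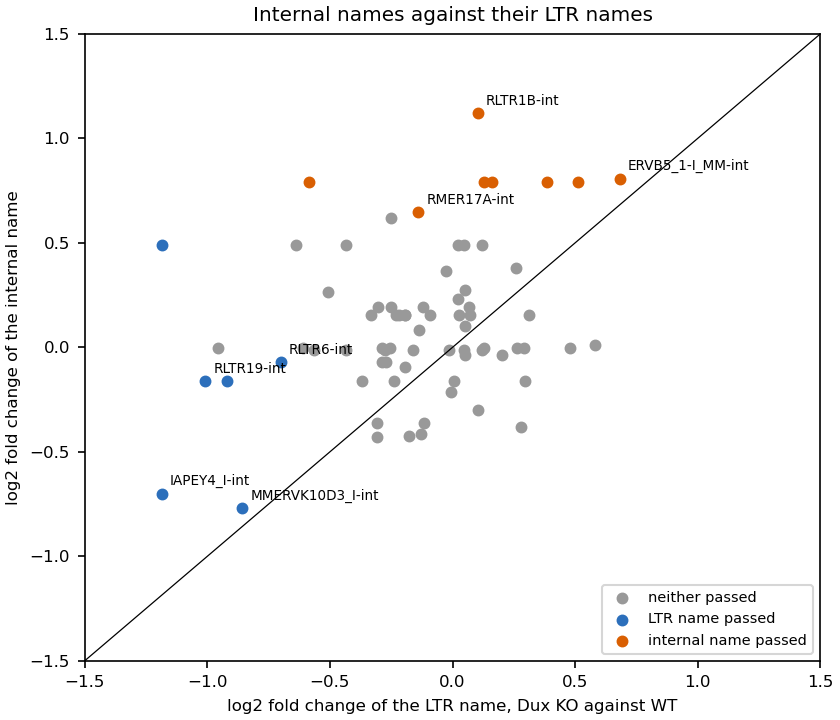
Log2 fold change of Dux KO over WT for the LTR name (x) and the internal name (y) of each of 73 pairs, with the line of equal change. More points (52) lie above the line than under it, and coloured points mark pairs in which 1 of the names passed.

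A list of 57 gene names was read from the gene table, in FPKM. It holds genes known for silencing or restricting such repeats, and also the TET enzymes and Dppa3, a protector of DNA methylation. A rise or fall within the list therefore does not by itself mean more or less silencing. Of the 50 tested with limma 5 were higher and 12 lower, and 33.6% of 12434 genes were called, 15.5% higher and 18.1% lower. Cbx1, an HP1 protein that binds methylated histone H3, on chromosome 11 (GRCm38) from 96789127 to 96808640, was at 10.4 ± 1.93 FPKM in WT pools and rose to 24.2 ± 5.69 FPKM, a log2 fold change of 1.13 with limma adjusted p = 0.0035. Suv39h2, a histone methyltransferase, and Chaf1b, a subunit of the chromatin assembly factor, also rose, by 0.50 and 0.47 on the log2 scale. Tet2, which oxidises methylated cytosine, was at 0.346 ± 0.0650 FPKM in WT pools and 0.659 ± 0.119 FPKM in Dux KO pools. Its mean of 0.502 FPKM met the minimum of 0.5 FPKM only through the Dux KO pools, and 5 of 17 alternatives kept its call, so its passing the test carries no weight.

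Losses were led by L3mbtl2, a subunit of a Polycomb complex (7.57 ± 0.988 FPKM in WT pools and 3.53 ± 0.600 in Dux KO pools, limma adjusted p = 0.004), and Smarcad1, a chromatin remodeller (16.7 ± 4.46 FPKM and 8.30 ± 1.55, limma adjusted p = 0.0088). Zfp809, a KRAB zinc finger protein that binds the primer binding site of murine leukaemia virus, measured 78.3, 56.7, 40.8 and 51.3 FPKM in WT pools 1 to 4 and 29.3, 36.3, 27.5 and 24.9 FPKM in Dux KO pools 1 to 4. No Dux KO pool reached the lowest WT pool (log2 fold change -0.90, limma adjusted p = 0.0089). Atf7ip2, Hdac1 and Kmt5b fell by 0.77, 0.70 and 0.68 on the log2 scale, and 6 further genes were lower. Trim28, the scaffold of KRAB silencing, was 23.4 ± 4.27 FPKM in WT pools, 18.3 ± 4.29 FPKM in Dux KO pools and did not pass (limma adjusted p = 0.166), and Setdb1, Dnmt1 and Uhrf1 had fold changes of -0.17, -0.19 and 0.11 and did not pass. Leaving out WT pool 2, WT pool 4, Dux KO pool 1 or Dux KO pool 2 gave 11, 8, 9 and 11 called genes in place of 17, which need not be the same genes.

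The maternal transcript Dppa3, which is abundant in early embryos, was at 4576 to 5665 FPKM in WT pools and at 3158 to 3747 in Dux KO pools. Dppa3 also stands in the silencing list and was 1 of its 12 genes called lower (log2 fold change -0.61, limma adjusted p = 0.012). Of 5 blood and 4 sperm markers none had a row in the gene table. Of 8 cumulus and granulosa markers 2 had one, summing to 1.19 to 6.38 FPKM in WT pools and 2.83 to 4.83 in Dux KO pools, and of 5 oviduct markers 2, Epcam and Ovgp1, with sums of 127 to 147 FPKM and 87.2 to 125 FPKM. Most of the oviduct sum came from 1 gene, with a mean of 111 FPKM over all pools. By limma 1 of the 2 oviduct genes was called lower, yet their median log2 fold change was 0.17, so the sum does not describe both. Of the 2 cumulus and granulosa genes 1 was called higher. The part of the oviduct markers in the repeat results was not tested.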

How the data were processed

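Poly(A) RNA of 8 embryo pools, 4 per genotype, was made into cDNA with a low-input kit and sequenced, per the labels' protocols. Per the submitters' processing notes, Trimmomatic 0.32, STAR 2.6.1a and SAMtools 1.7 were used with GRCm38 (mm10). Which counter and repeat annotation were used, whether strand was used, and how reads matching several copies were treated is not given in the sources used here, so related names can share reads. The authors deposited a signal per repeat name in FPM and FPKM per gene, each with a log2 fold change and an adjusted p-value of their own, per the file headers. Its sign matched the group means for 99.5% of repeats and 99.9% of genes. Dividing FPM by the value of 1 read gave whole reads for 100% of values within 0.05. The number of columns left without a sample was 0.

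Values were tested on log2(FPM + 1) or log2(FPKM + 1) with limma 3.58.1 (R 4.3.3, variance trend, robust moderation) for repeats of at least 1 FPM and genes of at least 0.5 FPKM on average, over all 8 pools with no covariate. Fold changes understate those of low names. All p-values are two-sided and adjusted over all repeats or all genes tested, and the scripts were tested on simulated data. Alternatives were a pseudocount of 0.1, other filters (none, 10 FPM, 5 FPKM), rescaling to a common total, a replicate block, median-of-ratios scaling, plain limma moderation, the deposited p-values, edgeR 4.0.16 and DESeq2 1.42.0 on recovered reads, and leaving out pools. The labels do not say whether a replicate number marks a shared litter or day, so the main test did not pair the pools. Coordinates come from GENCODE M21.

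The prefixes, gene lists and tests were chosen with earlier results of these data known. Named with values were the 10 most abundant names, the 10 largest changes called in each direction, the 2 most abundant internal and LTR names of each group, pairs, and silencing genes called (at most 6 in each direction) with Trim28, Setdb1, Dnmt1 and Uhrf1. Names and series outside that rule were chosen after their values were seen, and most of the names are marked so. The unmarked ones include RLTR16, MMERVK9E_I-int, MMERVK9C_I-int and the RLTR26 and RLTR30 series. One gene that this rule names is not reported here.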

Additional observations from a re-analysis of the deposited data

Results flagged for a closer look

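In groups of 4 pools, a pool is listed here when its gap to the nearest other pool took a share of the group's range above Dixon's 95% critical value. Of 154 such groups 9 did so, and chance gives about 1 in 20. Dux KO pool 2 stood above the other 3 Dux KO pools in RMER15 (3622 FPM against 3247 to 3298), in RLTR44-int (55.3 FPM against 40.2 to 42.1) and in IAPLTR2a2_Mm (287 FPM against 226 to 228). WT pool 4 stood below the other WT pools in RMER20A, at 138 FPM against 178 to 185. Dux KO pool 4 had the lowest internal share of IAP FPM, 55.7% against 59.0 to 59.5%. WT pool 2 had the highest ETn share of repeat FPM among WT pools, 0.188% against 0.168 to 0.170%, and the highest share of all internal names, 1.71% against 1.46 to 1.48%. Dux KO pool 1 had the lowest share of all internal names among Dux KO pools, 1.57% against 1.84 to 1.88%. In the gene Chaf1b, WT pool 1 stood above the other WT pools, at 13.0 FPKM against 11.5 to 11.6. The rise of RLTR44-int and RMER20A was no longer called without the pool named here.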

How the results depend on the processing

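Call counts moved most, and limits come from 4 pools per genotype and from the scale. With each pool rescaled to the same total FPM, 71 names were higher and 11 lower in place of 12 and 28; 3 IAP, 41 RLTR, 21 RMER, 4 ETn, 68 LTR and 14 internal names were called in place of 1, 22, 8, 0, 32 and 8. Medians moved to 0.25 over all names, 0.29 (IAP), 0.18 (RLTR), 0.31 (RMER), 0.40 (ETn), 0.32 (remaining names), 0.22 (LTRs) and 0.32 (internal names). Log2 ratios of summed FPM moved to 0.16 over all names, 0.082 (IAP), 0.16 (RLTR), 0.15 (RMER), 0.37 (ETn) and 0.19 (remaining names). Plain limma moderation called 2 higher and 8 lower, with 0 IAP, 6 RLTR, 2 RMER, 8 LTR and 2 internal names, and DESeq2 called 24 and 44, with 6 IAP, 38 RLTR and 56 LTR names. IAP calls were 5 with median-of-ratios scaling, with the deposited p-values and with edgeR.

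Without Dux KO pools 1 and 2 together, 1 name was higher and 6 lower, with 0 IAP, 4 RLTR, 2 RMER, 6 LTR, 1 internal and 4 silencing calls. Without Dux KO pools 3 and 4, 6 were higher, with 2 IAP, 12 RLTR, 5 RMER and 16 LTR calls. Leaving out single pools gave 3 to 11 higher, 13 to 36 lower, 0 to 5 IAP, 9 to 21 RLTR, 3 to 9 RMER, 13 to 37 LTR, 3 to 10 internal and 8 to 16 silencing calls.

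Signs turned only in names that were not called. After rescaling, IAPEz-int was 0.30, MMERVK10C-int 0.22, MMETn-int 0.28, RLTR19-int 0.15, RLTR6-int 0.24, RMER15 0.31, RMER16-int 0.31, RMER17A 0.17, RMER19B 0.29 and RMER6A 0.060. With median-of-ratios scaling IAPEz-int was 0.013, RMER15 0.023, RMER16-int 0.023 and RMER19B 0.0049; with edgeR IAPEz-int was 0.0085, RMER15 0.015 and RMER16-int 0.019; with DESeq2 IAPEz-int was 0.019, MMETn-int 0.0063, RMER15 0.024, RMER16-int 0.028 and RMER19B 0.0042. Without Dux KO pools 1 and 2, MMERVK10C-int was 0.027, MMETn-int 0.12, RLTR45-int 0.034, RMER16-int 0.032 and RMER19A -0.013. Without Dux KO pools 3 and 4, IAPEz-int was 0.031, RLTR1B -0.057, RLTRETN_Mm -0.10, RMER15 0.027 and RMER19B 0.040. Leaving out single pools gave RMER19B -0.12 to 0.087, RMER15 -0.066 to 0.062, RMER19C -0.095 to 0.10, IAPEz-int -0.094 to 0.034, RMER16-int -0.055 to 0.057, MMETn-int -0.097 to 0.072, RLTRETN_Mm -0.041 to 0.15, MMERVK10C-int -0.17 to 0.00022, RLTR1B -0.0073 to 0.21 and RMER17A -0.29 to 0.039.

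The difference in internal share fell from 2.16 to 0.573 percentage points in RLTR without RLTR1B-int, and from 1.53 to 0.803 in RMER without RMER4B. In the MMERVK, ERVB, BGLII and MYSERV names it went from -5.96 to -0.576 without BGLII and to 1.08 without MYSERV6-int and BGLII. These names were chosen after seeing the data, and the cause of the other shifts was not tested. With the replicate number as a block, 16 names were higher and 32 lower, beside 80 and 106 of all 1267 repeats tested. On that setting 4 IAP names were called. Same-numbered pools correlated in their deviations at 0.024, 0.13, -0.040 and 0.10. With 4 pools per genotype this cannot tell whether a number marks a shared litter or day, which the labels do not say.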
